A study of Canis lupus familiaris with 2 samples.

Results

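Collagens are the triple-helical proteins of the extracellular matrix, each molecule wound from 3 chains. Their genes were selected here by symbol: every probe set to which the array annotation gives exactly 1 gene symbol, that symbol being COL, a collagen type number, A and a chain number. This gave 36 genes with 97 probe sets, of 15115 genes and 42924 non-control probe sets in all. A further 7 collagen genes of the RefSeq gene table (COL6A2, COL6A5, COL9A2, COL9A3, COL11A1, COL18A1 and COL28A1) had no such probe set and were not analysed here. The symbol COL8A1 was found neither in the RefSeq gene table nor among the selected probe sets, so that gene was not analysed either.

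The subclones J3T-1 and J3T-2 come from the same parental canine glioma line, and the submitters describe them as similar in genetic background and different in invasion and angiogenesis. Neither carries a transgene or received a treatment in the labels. Both were grown in DMEM with serum, penicillin and streptomycin, and total RNA was hybridized to a canine 1-colour expression array, 1 array per subclone. The comparison asks which collagen transcripts differ between the subclones in culture. Every value is a single measurement of a single clone, so no replicate error, test or p-value can be given.

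Collagen chains are made as procollagens in the endoplasmic reticulum, where prolines and lysines are hydroxylated and the chains fold into a triple helix. Fibrillar collagens (types I, II, III, V, XI, XXIV and XXVII) lose their propeptides outside the cell and pack into fibrils. FACIT collagens, such as types XII, XIV and XVI, have interrupted helices and sit on fibril surfaces. Type IV chains form the sheet-like network of basement membranes, and type VI chains form beaded filaments. In brain, fibrillar collagen is largely restricted to vessels and meninges, and type IV collagen to the vascular basement membrane.

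The deposited values are MAS5 signals, a background-corrected brightness per probe set on a linear scale. The median over non-control probe sets, 19.0 for J3T-1 and 22.0 for J3T-2, served as the floor of each array. Signals under the floor were raised to it before a ratio was taken. For each gene the probe set brightest on average (mean of both log2 signals) stands as its representative, and ratios are J3T-2 over J3T-1. A fold against an array at its floor is a lower bound and is introduced by "at least". A gene was counted as different by size alone, at a fold of 2 or more. Levels of different genes are not compared as amounts of transcript, since each probe set has its own response. Sums over marker genes are sums of signal only, for the same reason.

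The arrays were alike in quality, with 3′ over 5′ control signals of 0.96 to 1.92 (J3T-1) and 0.85 to 1.61 (J3T-2). The median log2 ratio of all 9433 genes above the floor on at least 1 array was 0.17, a shift towards J3T-2 that is contained in every fold below. Of the glioma and neural markers, SOX2, NES and PDGFRA were above the floor on both arrays, while GFAP and S100B were at the floor on both. The summed signal of the 5 markers on the array came to 516.3 (J3T-1) and 1379.9 (J3T-2). Most of it is SOX2 (411.1 and 1191), while NES was 1.25-fold and PDGFRA 2.26-fold higher in J3T-2. Fibroblast and pericyte markers were above the floor for 3 of 7 genes (THY1, LUM and DCN), with summed signals of 4261 (J3T-1) and 2891 (J3T-2). That sum is carried by LUM (4131.1 and 2559.1), while THY1 (54.7 and 244.3, 4.47-fold) and DCN (51.9 and 71.3, 1.37-fold) were higher in J3T-2. The pericyte markers PDGFRB, RGS5 and CSPG4 were at the floor on both arrays. Of the endothelial markers 2 of 4 and of the leukocyte markers 1 of 4 were above the floor, none brighter than 36.8, and PECAM1, TEK and PTPRC were at the floor on both. The part of any marker difference in the collagen results was not tested. In bulk RNA, fewer cells with a transcript and less of it per cell cannot be told apart.

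Chains of collagens I, IV and V made up all 3 genes at least 2-fold higher in J3T-2 (COL1A1, COL5A1 and COL4A1). The 3 genes past 2-fold towards J3T-1 were the FACIT genes COL14A1 and COL16A1 and the beaded-filament gene COL6A1. Of the 36 genes, 20 were above the floor on at least 1 array (55.6%, against 62.4% of all genes). Both counts are 15% of the 20 measured genes. Of all measured genes, 7.28% passed 2-fold towards J3T-2 and 3.49% towards J3T-1, or 687 and 329 genes. With all ratios centred on their median, those counts were 470 and 436 over all genes and still 3 and 3 among the collagens. The median log2 ratio of the 20 genes was -0.04, against 0.17 over all measured genes.

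More collagen genes were above the floor in J3T-1 than in J3T-2. The representative probe set exceeded the median of its array for 17 of 36 genes in J3T-1 (58.7% of all genes did) and for 13 in J3T-2 (58.4%). Both arrays measured 10 genes, namely COL1A1, COL1A2, COL5A1, COL5A2, COL27A1, COL4A1, COL4A2, COL10A1, COL14A1 and COL15A1. Only J3T-1 was above the floor for 7 (COL6A1, COL6A3, COL13A1, COL16A1, COL17A1, COL22A1 and COL26A1), and only J3T-2 for 3 (COL4A5, COL20A1 and COL24A1). Over all measured genes these shares were 6.37% and 6%. Several of the genes measured on 1 array only lay close to the floor, among them COL17A1, COL22A1 and COL26A1.

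**Figure D1:**
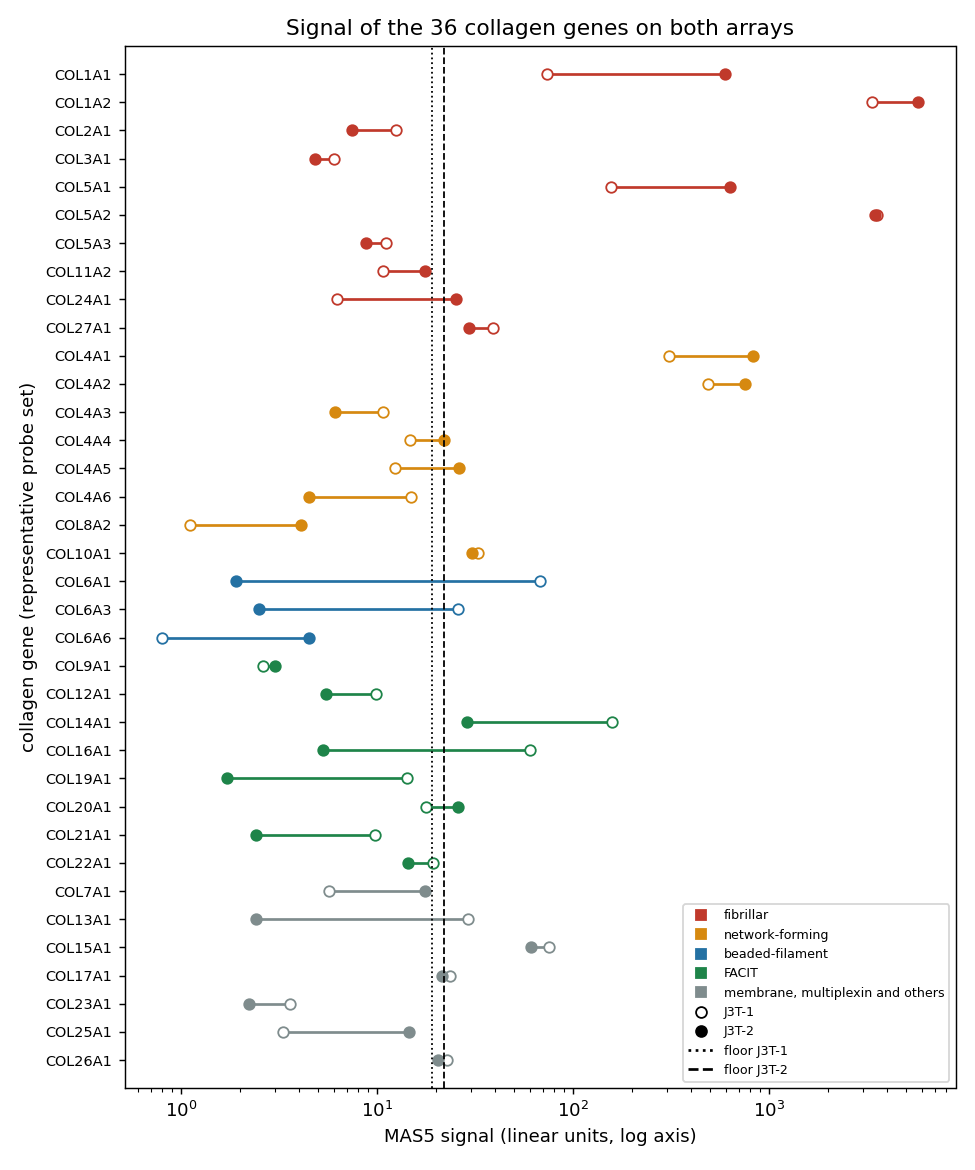
MAS5 signal (log axis) of the representative probe set of each of the 36 collagen genes in J3T-1 (open circles) and J3T-2 (filled circles), coloured by class, with the floor of each array as a vertical line. COL1A1, COL5A1 and COL4A1 lie further right in J3T-2, and COL14A1, COL16A1 and COL6A1 further right in J3T-1, while 16 genes lie at or below both lines.

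Fibrillar collagens had 6 of 10 genes above the floor, with a median log2 ratio of 0.59. COL1A1, the alpha 1 chain of type I collagen and the main fibril former of connective tissue, had 73.7 in J3T-1 against 598.7 in J3T-2. This 8.12-fold difference was the largest between representative probe sets of the 10 collagen genes measured on both arrays, and ranked 38 of 9433 measured genes from the J3T-2 side. Its other 2 probe sets had 23.2 against 136.2 (5.87-fold) and 9.3, under the floor, against 114.7 (at least 6.04-fold). All 3 COL1A1 probe sets were thus several-fold higher in J3T-2, with the J3T-1 signal near or under the floor in 2 of them.

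COL1A2 encodes the partner alpha 2 chain, present once in the usual type I heterotrimer. Its representative probe set had 3356 in J3T-1 and 5736 in J3T-2, or 1.71-fold. The other 3 gave larger ratios, with 1512.5 against 5213.8 (3.45-fold), 985.1 against 4352.5 (4.42-fold) and 81.2 against 278.4 (3.43-fold). So 3 of 4 COL1A2 probe sets passed 2-fold towards J3T-2 and the one chosen for brightness did not. By representative probe sets the log2 ratios of COL1A1 and COL1A2 differed by 2.25, and by the medians of those probe sets that both arrays measured they were 2.79 and 1.78. Between probe sets of 1 gene, the log2 ratio had an SD of 0.46 over 8 collagen genes and of 0.26 over 4580 genes of the whole array. This spread comes from within the same pair of arrays and does not measure the difference between cultures. Whether probe sets of a gene read different transcript forms was not tested.

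Type V collagen sits inside type I fibrils and limits their diameter. COL5A1, its alpha 1 chain, had 156 in J3T-1 against 629 in J3T-2 (4.03-fold, rank 130 from the J3T-2 side). A second COL5A1 probe set had 48.8 against 169.9 (3.48-fold), and the other 2 were at the floor on both arrays. COL5A2, the alpha 2 chain, had 3544 and 3456.8 by its representative probe set, a ratio of 1.03-fold towards J3T-1. Its other probe set had 802 and 1524.4, or 1.9-fold towards J3T-2. The direction of COL5A2 therefore depended on the probe set, while both measured COL5A1 probe sets had the same direction.

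COL3A1, the type III chain that accompanies type I in many tissues, was at the floor on both arrays. Its 5 probe sets had signals of 2.4 to 7.7 in J3T-1 and 2.1 to 4.8 in J3T-2. COL3A1 and COL5A2 are adjacent genes in the RefSeq table of the dog assembly UU_Cfam_GSD_1.0, so neighbours differed in whether they were above the floor at all. Of the remaining fibrillar genes, COL27A1 had 39.1 and 29.4 (1.33-fold towards J3T-1), with a further probe set at 56.2 against a J3T-2 signal at the floor (at least 2.55-fold). COL24A1 had 6.2 and 25.1, at least 1.32-fold towards J3T-2. The cartilage genes COL2A1 and COL11A2, and COL5A3, were at the floor on both arrays.

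Network-forming collagens had 4 of 8 genes above the floor and a median log2 ratio of 0.54. COL4A1, whose product joins that of COL4A2 in the common basement membrane heterotrimer, had a J3T-1 signal of 307.9 against 829.8 in J3T-2 (2.7-fold). Its other 2 probe sets had 189.2 against 647.7 (3.42-fold) and 136.5 against 363 (2.66-fold). COL4A2 had 490.1 and 751.5 (1.53-fold), and 76.3 against 184.7 (2.42-fold) by its other probe set. All 5 probe sets of this adjacent gene pair were higher in J3T-2, 4 of them by 2-fold or more.

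The other type IV chains, which build the specialised basement membranes of kidney, eye and ear, were dim. COL4A5 had 12.3 in J3T-1 and 26.2 in J3T-2, at least 1.38-fold higher in J3T-2. COL4A3, COL4A4 and COL4A6 were at the floor on both arrays, as was the network-forming COL8A2. COL10A1, known from hypertrophic cartilage, had 32.5 and 30.3 (1.07-fold towards J3T-1).

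**Figure D2:**
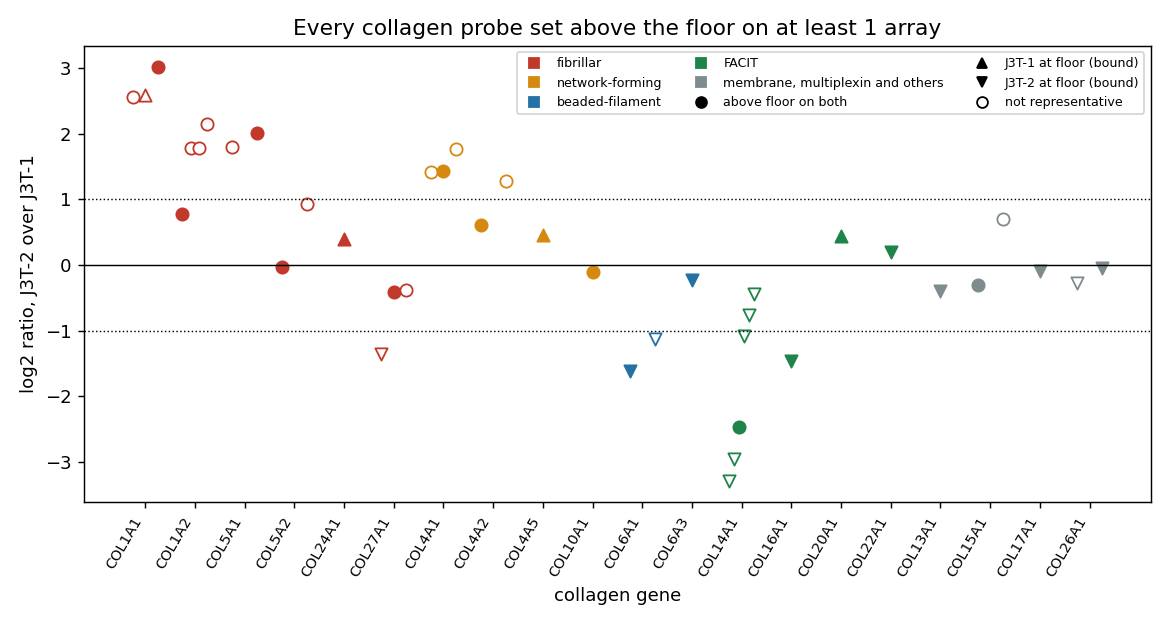
Log2 ratio of J3T-2 over J3T-1 for the 40 collagen probe sets above the floor on at least 1 array, by gene and class, with triangles for ratios that are bounds and dotted lines at 2-fold. All probe sets of COL1A1, COL1A2, COL4A1 and COL4A2 lie above 0 and all of COL6A1 and COL14A1 below it, while those of COL5A2 and COL15A1 lie on both sides. The COL22A1 point is the ratio of 19.2 to the J3T-2 floor of 22.0 and carries no fold.

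At the level of probe sets, 12 of the 40 passed 2-fold towards J3T-2, a share to be read beside 7.77% of all 17391 one-symbol probe sets above the floor. Another 8 passed 2-fold towards J3T-1, where the share of all was 3.3%. Probe sets of the same gene are not independent. J3T-1 alone was above the floor for 15 of the 40 (6.1% of all) and J3T-2 alone for 4 (6.44% of all).

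FACIT collagens had 4 of 8 genes above the floor, with a median log2 ratio of -0.63. COL14A1, whose product binds type I fibrils and takes part in their lateral growth, had 158.4 in J3T-1 against 28.7 in J3T-2 (5.52-fold, rank 52 of 9433 from the J3T-1 side). A further 5 of its 8 probe sets were above the floor in J3T-1, at 30 to 215.1, and at the floor in J3T-2, at 5.5 to 14.9. The brightest of these in J3T-1 was at least 9.78-fold higher there and the dimmest at least 1.36-fold. All 6 measured COL14A1 probe sets were higher in J3T-1, and 1 of them was above the floor in J3T-2.

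COL16A1, a FACIT-like collagen that also interacts with integrins, had 60.4 in J3T-1 and 5.3, under the floor, in J3T-2 (at least 2.75-fold). Its other 2 probe sets were at the floor on both arrays. COL20A1 had 17.8 and 25.9, at least 1.36-fold towards J3T-2. COL22A1 had 19.2 and 14.3, too close to the floor for a fold. COL12A1, the FACIT most akin to COL14A1, was at the floor by all 4 probe sets, with at most 9.9 in J3T-1 and 15.6 in J3T-2. COL9A1, COL19A1 and COL21A1 were likewise at the floor on both arrays.

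Beaded-filament collagens had 2 of 3 genes above the floor, both in J3T-1 only. COL6A1 encodes the alpha 1 chain of type VI collagen, which forms beaded filaments between cells and the surrounding matrix. It had 67.4 in J3T-1 and 1.9 in J3T-2 (at least 3.06-fold towards J3T-1), and 47.9 against 2.2 (at least 2.18-fold) by its other probe set. COL6A3, the alpha 3 chain of the same heterotrimer, had 25.8 and 2.5 (at least 1.17-fold towards J3T-1), and its other 2 probe sets were at the floor on both arrays. Both COL6A1 probe sets were far under the J3T-2 floor, so the bounds follow from the floor and the J3T-1 signals alone. COL6A6 was at the floor on both arrays.

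Outside these 4 classes, 4 of 7 genes were above the floor and 0 passed 2-fold in either direction, 3 of them with J3T-2 at the floor. COL15A1, a multiplexin of the basement membrane zone, had 75.2 and 60.8 (1.24-fold towards J3T-1), and a second probe set had 20.4 and 33.2 (1.63-fold towards J3T-2). The transmembrane collagen COL13A1 had 28.9 and 2.4 (at least 1.31-fold towards J3T-1), and its log2 ratio was -1.29 without a floor and -2.53 with a 25th-percentile floor. COL17A1, the hemidesmosomal collagen (23.4 and 21.3), and COL26A1 (22.7 and 20.5) were just above the floor in J3T-1 and just under it in J3T-2. COL7A1, the anchoring fibril chain, COL23A1 and COL25A1 were at the floor on both arrays.

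**Figure D3:**
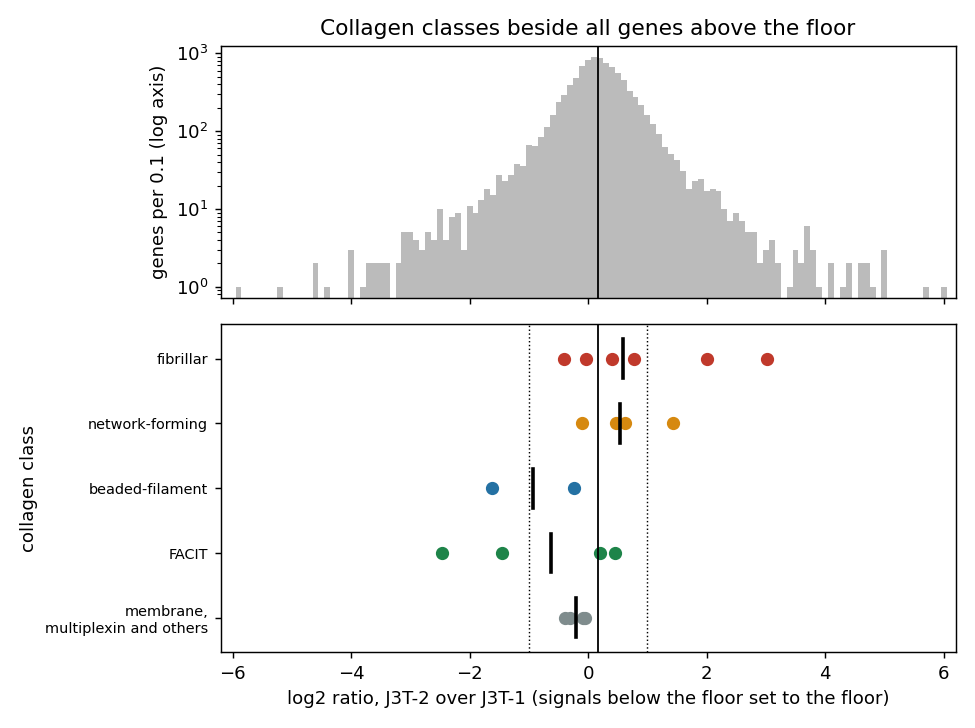
Log2 ratios of J3T-2 over J3T-1. The upper panel is a histogram (log axis) of the 9433 measured genes with their median of 0.17 as a vertical line, and the lower panel shows the 20 measured collagen genes by class, with black bars at the class medians and dotted lines at 2-fold. The fibrillar (0.59) and network-forming (0.54) medians lie to the right of the all-gene median, and the beaded-filament (-0.92) and FACIT (-0.63) medians to its left. Ratios with 1 array at the floor enter the medians as bounds.

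The fibrillar and network-forming genes together had 7 of 10 measured members with a ratio above 0, and the beaded-filament and FACIT genes had 2 of 6, of which COL22A1 carries no fold. With 2 to 6 measured genes a class, each median rests on few values. Ratios with 1 array at the floor enter the medians as bounds, so the medians depend on the floor chosen. Both arrays were above the floor for 0 of the 2 measured beaded-filament genes and 1 of the 4 FACIT genes. Without COL22A1 the FACIT median was -1.46.

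Genes of 1 chromosome can shift together, and the chromosomes of all 36 genes were taken from the RefSeq table. COL1A1 and COL5A1 both lie on chromosome 9, where the 604 measured genes had a median log2 ratio of 0.57 towards J3T-2. Relative to that median COL1A1 was at 2.45 and COL5A1 at 1.44. COL1A2 lies on chromosome 14, with a median of -0.26 over 159 genes, and came to 1.03 relative to it, past 2-fold. COL4A1 and COL4A2 lie on chromosome 22, with a median of 0.14. The chromosome medians were 0.07 for COL14A1, 0.17 for COL16A1 and 0.15 for COL6A1. Relative to them COL14A1 was at -2.53, COL16A1 at -1.62 and COL6A1 at -1.76.

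The genes that process collagen were described from lists of their functions. No probe set with exactly 1 symbol was found for the listed PLOD2, P3H3 and LOXL1 (modification), TNXB (fibril-associated) and MRC2 (receptors). Counts are by representative probe sets. They are to be read beside the shares of all measured genes, 7.28% towards J3T-2 and 3.49% towards J3T-1. The list medians are to be read beside the all-gene median of 0.17. Of 18 folding and secretion genes, all above the floor on both arrays, 1 passed 2-fold towards J3T-2 and 0 towards J3T-1, with a median log2 ratio of 0.34. That gene was FKBP14, a prolyl isomerase of the endoplasmic reticulum that acts on procollagen, with 29.1 and 93.6 (3.22-fold). The collagen chaperone gene SERPINH1 (HSP47) had 212.1 and 344.7 (1.63-fold towards J3T-2), and the disulfide isomerase gene PDIA3 1201.2 and 1855.1 (1.54-fold). For P4HB and MIA3 the highest log2 ratio of a probe set was 1.08, past 2-fold towards J3T-2, while their representatives were not.

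Among 13 measured modifying enzymes, 1 passed 2-fold towards J3T-2 and 2 towards J3T-1, with a median of 0.26. P3H2, a prolyl 3-hydroxylase known for its activity on type IV collagen, had 91.8 and 568.2 (6.19-fold towards J3T-2). LOX, the lysyl oxidase that starts cross-linking, had 2618.8 and 382.6 (6.84-fold towards J3T-1). P4HA3, a catalytic subunit of prolyl 4-hydroxylase, had 197.6 and 33 (5.99-fold towards J3T-1), while the subunit genes P4HA1 and P4HA2 lay within 1.5-fold by their representative probe sets.

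Of 8 propeptide-cleavage genes 4 were measured and 0 were 2-fold apart in either direction. The procollagen proteinase gene BMP1 had 78.2 and 94.1, and its enhancer PCOLCE 813.2 and 436.8 (1.86-fold towards J3T-1). The other enhancer gene, PCOLCE2, went the other way, with 108 and 136.6 (1.26-fold towards J3T-2). ADAMTS2 and ADAMTS14, which remove amino-terminal propeptides, were at the floor on both arrays. ADAMTS3 of the same list had 19.7 in J3T-1 and 18.8 in J3T-2, too close to the floor for a fold. By representative probe sets, 5 of 10 measured fibril-associated genes passed 2-fold towards J3T-2 and 0 towards J3T-1, with a median of 0.93. Another probe set of FN1 had a log2 ratio of -1.14, past 2-fold towards J3T-1. Among the 5 were TGFBI, a collagen-binding adhesion protein (12.6 and 230.7, at least 12.1-fold), FBLN1 (94.4 and 332.4, 3.52-fold) and the small proteoglycan FMOD, which binds type I fibrils (43.9 and 114.3, 2.6-fold).

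Of 7 measured collagen receptor genes 2 passed 2-fold towards J3T-2 and 1 towards J3T-1, with a median of 0.15. The discoidin domain receptor kinases DDR1 (85.4 and 210.2, 2.46-fold) and DDR2 (248.3 and 576.5, 2.32-fold) were higher in J3T-2. Relative to their chromosome medians, 1 of these 2, DDR1, still passed 2-fold towards J3T-2. ITGA2, the alpha chain of a collagen-binding integrin, had 851.6 and 130.1 (6.55-fold towards J3T-1). Of 6 measured degradation genes 0 passed 2-fold towards J3T-2 and 2 towards J3T-1, with a median of -0.66. These were the protease FAP (177.5 and 13.2, at least 8.07-fold) and the collagen-cleaving cathepsin CTSK (2705.9 and 983.7, 2.75-fold). The collagenases MMP1, MMP8 and MMP13 were at the floor on both arrays. Of the other metalloprotease genes listed, MMP14 had 72.8 and 54.5 and MMP2 34.8 and 35.3, and MMP9 was at the floor on both.

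**Figure D4:**
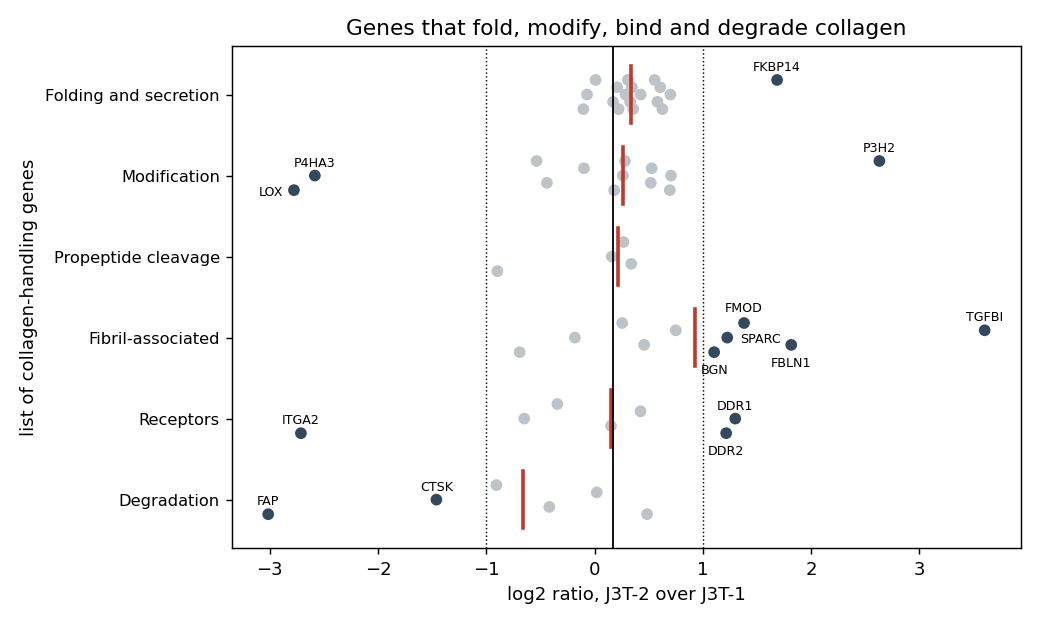
Log2 ratio of J3T-2 over J3T-1 for the measured genes of 6 lists of collagen-handling genes, with red bars at the list medians, a black line at the median of all measured genes (0.17) and dotted lines at 2-fold. Named genes are at least 2-fold apart, and the values of TGFBI and FAP are lower bounds. The fibril-associated median (0.93) lies to the right of the all-gene line and the degradation median (-0.66) to its left.

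The 6 collagen genes past 2-fold kept their direction under all alternative settings that measured them. COL1A1 ranged from 2.45 to 3.02 in log2 ratio, COL5A1 from 1.44 to 2.01 and COL4A1 from 1.25 to 1.43 over 9 alternatives. COL14A1 ranged from -2.96 to -0.39, the last with the floor at the 75th percentile, which ends its call. COL6A1 ranged from -3.75 to -1.12 over 8 alternatives and COL16A1 from -3.51 to -1.46 over 7. With the floor at the 75th percentile neither was measured, which ends their calls too. COL16A1 was also not measured without _x_at and _s_at probe sets. COL1A2 stayed above 0, at 0.61 to 1.79, and COL5A2 went from -0.20 to 0.93.

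**Figure D5:**
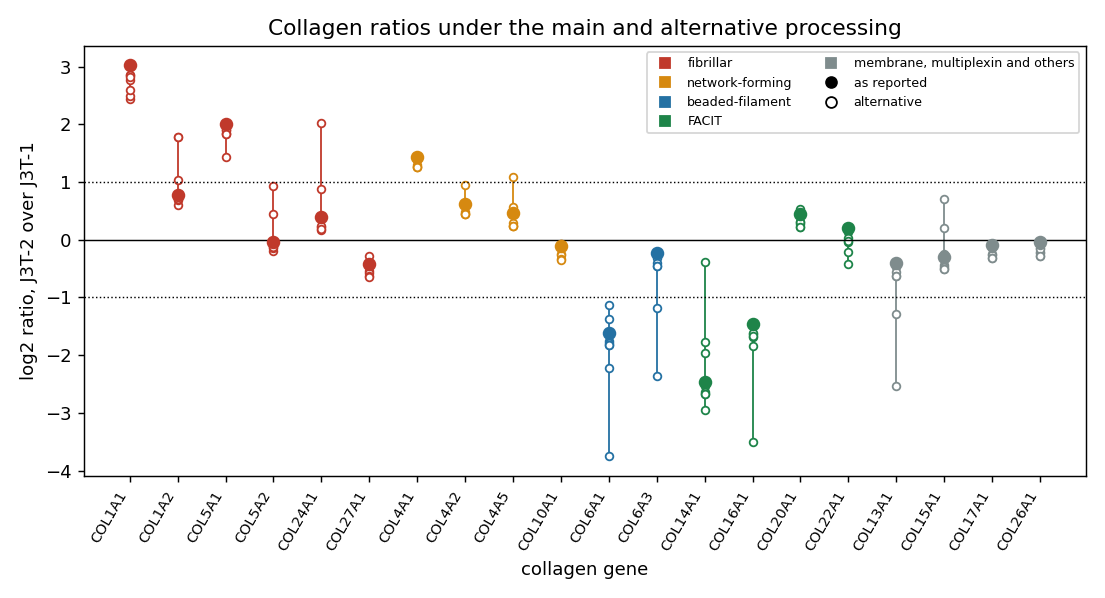
Log2 ratio of J3T-2 over J3T-1 of the 20 measured collagen genes as reported (filled) and under up to 9 alternative settings (open), with lines spanning all values and dotted lines at 2-fold. COL1A1, COL5A1 and COL4A1 stay above the upper dotted line throughout, and COL5A2, COL15A1 and COL22A1 cross 0. COL6A1 and COL16A1 stay below the lower line in the settings that measured them.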

How the data were processed

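RNA of J3T-1 and J3T-2 was measured on 1 array each. The authors deposited linear signal intensities made with MAS5, per the submitters' processing notes. Its version, scaling target and detection calls were not given in the sources used here. Of 43035 probe sets in the file, 111 were controls. Of the others, 29254 had 1 gene symbol in the array annotation, 439 had several and 13231 had none, and genes were named from the first kind only.

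Signals under the median of each array were set to that median and log2 ratios were taken without further scaling. All 36 selected collagen genes are accounted for. Both signals are given for those at least 2-fold apart and for measured chains of types I, III, IV, V and VI, and others are named by size. Genes of the processing lists were named by size of the log2 ratio, up to 3 a list. P4HA1, P4HA2, P4HB, MIA3, FN1, BMP1, PCOLCE2, the ADAMTS genes and the MMP genes were named in addition, after their values were seen. The members and lists were chosen with earlier results of these data known. With 1 array per subclone no test was possible, and the number of arrays limits the precision. The 2-fold rule was checked on simulated data. No sequence was used. Tools were matplotlib 3.10.9, pandas 2.3.3, numpy 2.4.6 and statsmodels 0.14.6 under Python 3.11.15.

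Alternatives were centring on the median of all genes or of each chromosome, quantile normalization, loess (span 0.3), a floor at the 25th or the 75th percentile, log2(signal + 16) in place of a floor, the median over probe sets, and omission of _x_at and _s_at probe sets.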

Additional observations from a re-analysis of the deposited data

How the results depend on the processing

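With the floor at the 25th percentile, 7 collagen genes of 32 passed 2-fold in each direction, the FACIT median was -0.96 and the beaded-filament median -3.06. With the floor at the 75th percentile, 7 collagen genes were measured and 0 were 2-fold higher in J3T-1, the fibrillar median was 1.39 over 4 genes and the network-forming median 1.02 over 2, and no beaded-filament gene was left. Without a floor, 5 of 36 genes were 2-fold higher in J3T-1. In that setting the fibrillar median was 0.15 and the network-forming median 0.27, beside an all-gene median of 0.07. The fibrillar median was 1.11 with the median over probe sets and 1.36 without _x_at and _s_at probe sets. The latter setting reversed the FACIT median to 0.20, since it drops COL16A1 and leaves 3 genes with COL22A1, which carries no fold, in the middle. Centring on the all-gene median, quantile normalization, loess and chromosome centring kept the direction of all 4 class medians and counts of 3 or 4 genes towards J3T-2 and 3 towards J3T-1. Over all 9433 measured genes, the counts past 2-fold towards J3T-2 and towards J3T-1 were 687 and 329 as reported. They were 470 and 436 after centring, 438 and 467 after quantile normalization, and 438 and 464 after loess. Chromosome centring gave 438 and 425 of 9432 genes. The lower floor gave 1511 and 869 of 13387 genes, and the higher 264 and 121 of 5236. Without a floor the counts were 533 and 299 of 15115. PCOLCE passed 2-fold towards J3T-1 under all 4 scalings, and the count of its list went from 0 to 1. The fibril-associated count towards J3T-2 went from 5 to 4 under all 4. The degradation count towards J3T-1 went from 2 to 3 under all but chromosome centring, which kept 2. With the higher floor FKBP14, FMOD, P4HA3, FAP and DDR1 no longer passed 2-fold. Low signal limits 16 of the 36 genes to no ratio and 10 to a bound or none. No paired analysis was possible because each subclone has 1 array.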
